A study of Mus musculus with 18 samples.

Results

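The genes described here are 10 autophagy genes of the mouse, taken by symbol: *Ulk1*, *Becn1*, *Wipi1*, *Atg12*, *Atg16l1*, *Map1lc3a*, *Map1lc3b*, *Gabarapl1*, *Gabarapl2* and *Sqstm1*. They are 10 of the 54752 genes with RNA values and 10 of the 22523 genes with footprint counts, and all 10 passed the filters on low counts in every test below. Cerebella of 3-week-old mice were profiled by poly(A) RNA-seq and by ribosome profiling, which sequences the stretches of mRNA covered by ribosomes (footprints). The groups were wildtype C57BL/6J (B6J), B6J.*Gtpbp1*-/-, in which a neomycin cassette replaces coding sequence of *Gtpbp1* on a strain backcrossed to C57BL/6J, and B6J-*Gtpbp2*-/-, which carries the chemically induced nmf205 point mutation of *Gtpbp2*. Each genotype had 3 libraries in each assay. All 3 groups carry the C57BL/6J mutation of n-Tr20, a tRNA gene expressed in brain whose product decodes AGA codons, so no comparison here isolates that mutation.

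In macroautophagy, a kinase complex built around ULK1 starts the process, and a lipid kinase complex that contains Beclin 1 (from *Becn1*) marks the site where a membrane, the phagophore, grows. WIPI proteins read that lipid mark, ATG12 and ATG16L1 are parts of a conjugation complex at the membrane, and receptors such as p62 (from *Sqstm1*) bind ubiquitin-tagged cargo and are themselves degraded. Neurons depend on this pathway to clear proteins and organelles, and RNA levels of its genes do not measure the flow of cargo through it.

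RNA libraries held 37794598 to 52114400 estimated counts over all genes. Footprint libraries were smaller, at 4428395, 4489970 and 6523974 counts in B6J, 7054063, 8612441 and 5944024 in B6J.*Gtpbp1*-/-, and 6281637, 3630823 and 10442573 in B6J-*Gtpbp2*-/-. The smallest count of any of the 10 genes in a footprint library was 93, for *Map1lc3b* in B6J. The genotype labels were checked on the mutated genes, in counts-per-million values (CPM, scaled by edgeR's TMM factors), the unit of all levels below unless another is named. RNA counted over the whole of *Gtpbp1*, including exons outside the replaced part, stood at 70.7, 77.6 and 66.5 CPM in B6J, 44.2, 41.7 and 43.8 CPM in B6J.*Gtpbp1*-/- and 58.8, 72.3 and 65.8 CPM in B6J-*Gtpbp2*-/-, lowest in all 3 libraries of its own mutant. *Gtpbp1* footprints were 73.9, 116 and 85.6 CPM in B6J, 31.7, 25.4 and 36.1 CPM in B6J.*Gtpbp1*-/- and 79.3, 66.2 and 61.8 CPM in B6J-*Gtpbp2*-/-. For *Gtpbp2*, a point mutation need not alter the count. Its RNA overlapped between B6J (85.6, 73.8 and 87.8 CPM) and B6J-*Gtpbp2*-/- (65.6, 75.5 and 72.9 CPM) and stood at 109, 101 and 104 CPM in B6J.*Gtpbp1*-/-, whereas its footprints were 44.9, 36.0 and 38.8 CPM in B6J, 35.9, 43.1 and 59.2 CPM in B6J.*Gtpbp1*-/- and 28.9, 26.2 and 7.51 CPM in B6J-*Gtpbp2*-/-. RNA of the Y-linked gene *Ddx3y* marked 3 libraries as male, replicates 1 and 2 of B6J.*Gtpbp1*-/- and replicate 2 of B6J, and the other 6, among them all of B6J-*Gtpbp2*-/-, as female.

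Comparing each mutant with B6J asks whether RNA of the autophagy genes differs when either GTPase is missing. RNA of *Sqstm1* was higher and RNA of *Map1lc3a* and *Gabarapl2* was lower in both mutants. In B6J.*Gtpbp1*-/-, 4 of the 10 genes passed edgeR's quasi-likelihood test at an adjusted p of at most 0.05, against 13.8% of the 24577 genes tested. *Sqstm1* was the gene that was higher (5.90% of all genes were called higher), and *Map1lc3a*, *Gabarapl2* and *Ulk1* were lower (7.93% were called lower). In B6J-*Gtpbp2*-/-, 3 of the 10 passed, against 8.63% of 24859 genes, with *Sqstm1* higher (3.61% of all genes) and *Map1lc3a* and *Gabarapl2* lower (5.02%). With upper quartile normalization the share of higher calls among all called genes moved from 42.6% to 54.9% in B6J.*Gtpbp1*-/- and from 41.8% to 53.3% in B6J-*Gtpbp2*-/-, and *Sqstm1*, *Map1lc3a* and *Gabarapl2* kept their direction and their calls under it. The libraries did not overlap between genotypes for *Sqstm1*, *Map1lc3a* and *Gabarapl2*, which makes 3 of 10 in B6J.*Gtpbp1*-/- (31.9% of all genes) and 3 of 10 in B6J-*Gtpbp2*-/- (28.6%). The median log2 fold change of the 10 genes was −0.12 in B6J.*Gtpbp1*-/-, where all genes tested had 0.03, and −0.04 in B6J-*Gtpbp2*-/-, where all genes had 0.03. Both comparisons share the B6J libraries, so their values stand side by side here and no overlap between them is tested.

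**Figure D1:**
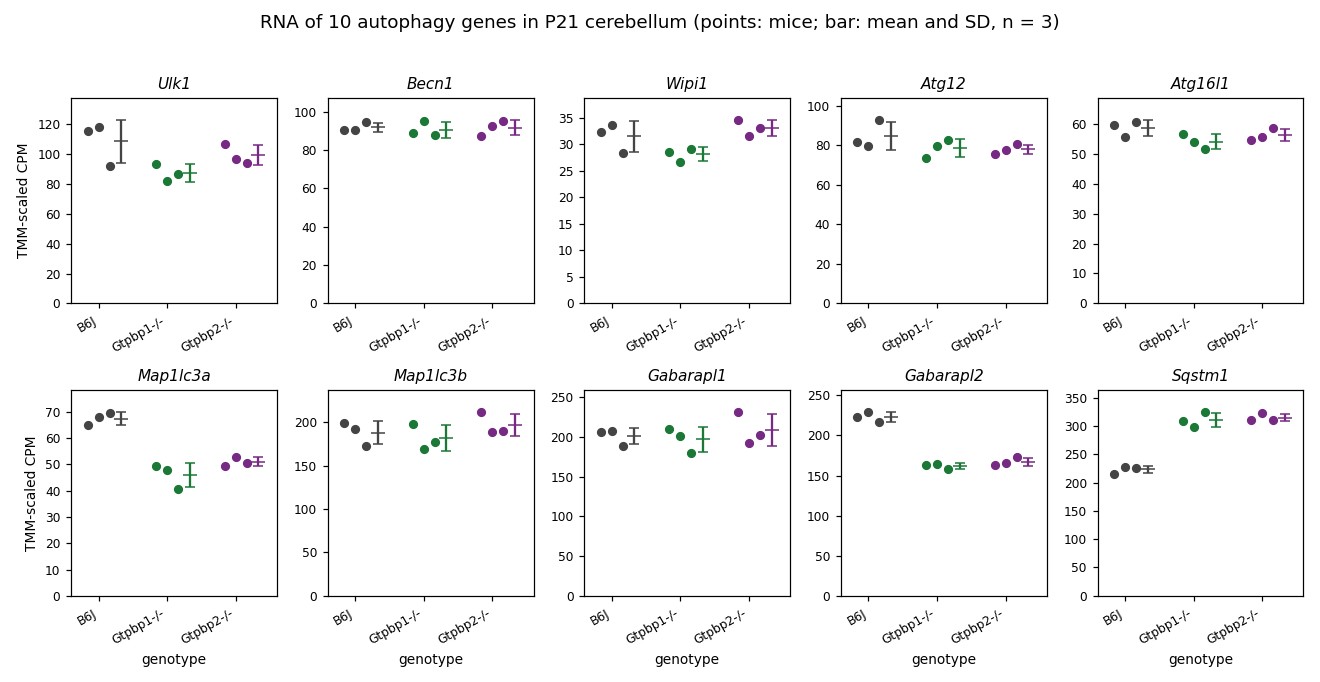
RNA of the 10 genes in TMM-scaled CPM (vertical axes, from 0) in each library of the 3 genotypes (points), with the mean and SD of each genotype (bars, n = 3). *Sqstm1* lay at 216 to 228 CPM in B6J and at 298 to 324 CPM in the mutants, and *Map1lc3a* and *Gabarapl2* were lower in every mutant library than in every B6J library.

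The initiating kinase gene *Ulk1* (ENSMUSG00000029512.11, GRCm38 chr5:110784488-110810097) had RNA of 115, 118 and 91.9 CPM in B6J, 93.5, 81.7 and 86.3 CPM in B6J.*Gtpbp1*-/- and 107, 96.7 and 94.2 CPM in B6J-*Gtpbp2*-/-. B6J replicate 3 lay within the range of the mutants, so the groups overlapped. The log2 fold change was −0.32 ± 0.10 (SE, adjusted p = 0.0417 from edgeR) in B6J.*Gtpbp1*-/- and −0.13 ± 0.10 (adjusted p = 0.498 from edgeR) in B6J-*Gtpbp2*-/-. The call in B6J.*Gtpbp1*-/- was lost with upper quartile normalization (−0.27, adjusted p = 0.0807 from edgeR) and when any of 5 of the 6 libraries was left out (−0.371 to −0.258). Over the 14 alternatives, its adjusted p ranged from 0.00252, without B6J replicate 3, to 0.371, with an offset for transcript length. In B6J-*Gtpbp2*-/- the log2 fold change of *Ulk1* ran from −0.235 to 0.131 over the alternatives, so its direction was not fixed. It passed under none of them. Between the mutants, every B6J.*Gtpbp1*-/- library was below every B6J-*Gtpbp2*-/- library, with a log2 fold change of −0.19 ± 0.08 (unadjusted p = 0.0419 and adjusted p = 1.00, edgeR), so a difference between them did not pass.

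*Becn1* (ENSMUSG00000035086.13, chr11:101285952-101302286), which encodes the scaffold of the lipid kinase complex, had nearly the same RNA in every library, at 90.7, 90.6 and 94.7 CPM in B6J, 88.9, 95.5 and 87.8 CPM in B6J.*Gtpbp1*-/- and 87.4, 92.8 and 95.1 CPM in B6J-*Gtpbp2*-/-. Its log2 fold changes were −0.03 ± 0.07 and −0.01 ± 0.07, and neither passed (adjusted p = 0.864 and 0.955 from edgeR). *Wipi1* (ENSMUSG00000041895.15, chr11:109573331-109611967) encodes a reader of the lipid mark. It had the lowest CPM of the 10, at 32.4, 33.7 and 28.3 CPM in B6J, 28.6, 26.6 and 29.2 CPM in B6J.*Gtpbp1*-/- and 34.5, 31.6 and 33.1 CPM in B6J-*Gtpbp2*-/-. Neither mutant differed from B6J by edgeR's test (log2 fold change −0.17 ± 0.10, adjusted p = 0.320, and 0.07 ± 0.10, adjusted p = 0.771). The B6J.*Gtpbp1*-/- libraries lay below all B6J-*Gtpbp2*-/- libraries (log2 fold change −0.23 ± 0.09, unadjusted p = 0.0221, adjusted p = 1.00 from edgeR).

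The conjugation genes *Atg12* (ENSMUSG00000032905.5, chr18:46730144-46741580) and *Atg16l1* (ENSMUSG00000026289.15, chr1:87755870-87792428) gave no call. *Atg12* RNA was 81.7, 79.7 and 92.8 CPM in B6J, 73.7, 79.8 and 82.7 CPM in B6J.*Gtpbp1*-/- and 75.7, 77.9 and 80.5 CPM in B6J-*Gtpbp2*-/-. *Atg16l1* RNA was 59.7, 55.5 and 60.4 CPM in B6J, 56.5, 53.9 and 51.5 CPM in B6J.*Gtpbp1*-/- and 54.6, 55.6 and 58.4 CPM in B6J-*Gtpbp2*-/-. Groups of both genes overlapped. The log2 fold changes of *Atg12* were −0.11 ± 0.08 in B6J.*Gtpbp1*-/- and −0.13 ± 0.08 in B6J-*Gtpbp2*-/- (adjusted p = 0.444 and 0.413 from edgeR). Those of *Atg16l1* were −0.12 ± 0.08 and −0.07 ± 0.08 (adjusted p = 0.368 and 0.697 from edgeR).

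*Map1lc3a* (ENSMUSG00000027602.9, chr2:155276297-155278073) had RNA of 64.9, 67.9 and 69.5 CPM in B6J, 49.4, 47.8 and 40.7 CPM in B6J.*Gtpbp1*-/- and 49.6, 52.8 and 50.5 CPM in B6J-*Gtpbp2*-/-. Every mutant library was below every B6J library. The log2 fold change was −0.56 ± 0.09 in B6J.*Gtpbp1*-/- (adjusted p = 0.000871 from edgeR) and −0.41 ± 0.08 in B6J-*Gtpbp2*-/- (adjusted p = 0.00808 from edgeR). Its size depended on the transcripts counted. In B6J.*Gtpbp1*-/- it ran from −1.01, with protein-coding transcripts alone (adjusted p = 0.0185 from edgeR), to −0.45, with the offset for transcript length (0.0203), and it passed under all 14 alternatives. The B6J-*Gtpbp2*-/- value ran from −0.65 to −0.36 in the same settings, and with protein-coding transcripts alone it did not pass (adjusted p = 0.120 from edgeR), whereas it passed under the others. *Gabarapl2* (ENSMUSG00000031950.7, chr8:111940703-111953612) had RNA of 223, 229 and 217 CPM in B6J, 163, 164 and 158 CPM in B6J.*Gtpbp1*-/- and 163, 165 and 173 CPM in B6J-*Gtpbp2*-/-, again without overlap. Its log2 fold change was −0.47 ± 0.07 in B6J.*Gtpbp1*-/- (adjusted p = 0.000555 from edgeR) and −0.42 ± 0.07 in B6J-*Gtpbp2*-/- (adjusted p = 0.00413 from edgeR).

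*Map1lc3b* (ENSMUSG00000031812.16, chr8:121590361-121598760) had RNA of 199, 192 and 173 CPM in B6J, 198, 169.6 and 177 CPM in B6J.*Gtpbp1*-/- and 211, 188 and 189.8 CPM in B6J-*Gtpbp2*-/-. *Gabarapl1* (ENSMUSG00000030161.8, chr6:129533160-129542346) had 207, 208 and 189 CPM in B6J, 210.4, 201 and 180.0 CPM in B6J.*Gtpbp1*-/- and 231, 192 and 203 CPM in B6J-*Gtpbp2*-/-. Groups overlapped for both in CPM. Log2 fold changes of *Map1lc3b* were −0.06 ± 0.08 and 0.06 ± 0.08 (adjusted p = 0.747 and 0.767 from edgeR). Those of *Gabarapl1* were −0.04 ± 0.08 and 0.04 ± 0.09 (adjusted p = 0.835 and 0.834 from edgeR). With the offset for transcript length they were 0.15 and 0.18 (adjusted p = 0.401 and 0.364 from edgeR).

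The cargo receptor gene *Sqstm1* (ENSMUSG00000015837.15, chr11:50199366-50210827) was the member with higher RNA in the mutants. Its RNA was 216, 228 and 227 CPM in B6J (223 ± 6.58, mean and SD, n = 3), 309, 298 and 324 CPM in B6J.*Gtpbp1*-/- (310.4 ± 13.0) and 311, 322 and 311 CPM in B6J-*Gtpbp2*-/- (315 ± 6.66). All 6 mutant libraries were above all 3 B6J libraries. RNA was 1.38-fold higher in B6J.*Gtpbp1*-/- (log2 fold change 0.47 ± 0.07, adjusted p = 0.00107 from edgeR) and 1.40-fold higher in B6J-*Gtpbp2*-/- (log2 fold change 0.49 ± 0.07, adjusted p = 0.00226 from edgeR). The mutants overlapped, with a log2 fold change between them of −0.02 ± 0.08 (adjusted p = 1.00 from edgeR). Under all 14 alternatives the log2 fold change of *Sqstm1* stayed between 0.43 and 0.52 in B6J.*Gtpbp1*-/- and between 0.47 and 0.53 in B6J-*Gtpbp2*-/-, with adjusted p of at most 0.0149 and 0.0276.

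Between the mutants, no member passed edgeR's test, where 0.0595% of 25190 genes did. An unadjusted p under 0.05 was reached by 2 of the 10 (*Ulk1* and *Wipi1*), against 3.57% of all genes, and DESeq2 called 0 of the 10 and 0.183% of all genes. The mutants' libraries did not overlap for 3 of 10 genes, *Map1lc3a*, *Ulk1* and *Wipi1*, all lower in B6J.*Gtpbp1*-/-, against 8.92% of all genes. The median log2 fold change of the 10 was −0.07, and that of all genes tested was −0.001. RNA of the 6 oligodendrocyte markers was also lower in B6J.*Gtpbp1*-/- than in B6J-*Gtpbp2*-/-, with a median of −0.45. For 3 of these markers the mutants' libraries did not overlap. Their part in the values of the autophagy genes was not tested.

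Whole cerebellum mixes many cell types, and fewer cells of a type cannot be told apart from less RNA per cell. Markers of several types moved together with the results above. All 6 granule neuron markers had lower RNA in both mutants by edgeR's test, and their summed level was 4467, 4678 and 4612 CPM in B6J, 2741, 2696 and 3114 CPM in B6J.*Gtpbp1*-/- and 2861, 3125 and 2724 CPM in B6J-*Gtpbp2*-/-, with *Cbln3* the most abundant. Among oligodendrocyte markers, RNA of *Mbp*, *Mog*, *Mag*, *Cldn11* and *Mobp* was lower in B6J.*Gtpbp1*-/-, and none of these passed in B6J-*Gtpbp2*-/- (adjusted p of 0.873 to 0.973 from edgeR). Between the mutants edgeR called 0 of the 6 oligodendrocyte markers in RNA (5 at an unadjusted p under 0.05, 2 by DESeq2). *Mbp* was at 4626, 3915 and 4955 CPM in B6J, 3650, 3347 and 2692 CPM in B6J.*Gtpbp1*-/- and 5223, 3648 and 4210 CPM in B6J-*Gtpbp2*-/-. Among microglial markers, RNA of *Cx3cr1*, *Csf1r* and *C1qa* was higher in both mutants, and *P2ry12* and *Tmem119* were not called in either (adjusted p = 0.254 and 0.430 in B6J.*Gtpbp1*-/- and 0.163 and 0.682 in B6J-*Gtpbp2*-/-, from edgeR). *Csf1r* was at 29.5, 32.5 and 27.8 CPM in B6J, 58.3, 48.7 and 47.0 CPM in B6J.*Gtpbp1*-/- and 50.8, 48.6 and 52.8 CPM in B6J-*Gtpbp2*-/-. *C1qa* was at 10.5, 10.2 and 10.7 CPM in B6J, 29.2, 24.9 and 27.4 CPM in B6J.*Gtpbp1*-/- and 23.9, 28.7 and 26.2 CPM in B6J-*Gtpbp2*-/-. Endothelial markers were higher for 3 of 4 genes in B6J.*Gtpbp1*-/- and 2 of 4 in B6J-*Gtpbp2*-/-, with sums of 165, 150.2 and 145 CPM in B6J, 205, 207 and 207 CPM in B6J.*Gtpbp1*-/- and 176, 229 and 259 CPM in B6J-*Gtpbp2*-/-, led by *Slco1c1*. Among Purkinje cell markers, 1 of 6 was lower in B6J.*Gtpbp1*-/- and 3 of 6 in B6J-*Gtpbp2*-/-, and the sums, led by *Itpr1*, were 8123, 9226 and 6810 CPM in B6J, 6711, 5985 and 7770 CPM in B6J.*Gtpbp1*-/- and 6050, 6890 and 5669 CPM in B6J-*Gtpbp2*-/-. Of 6 markers of astrocytes and Bergmann glia, 1 was higher and 2 were lower in each mutant, with sums of 4888, 5227 and 4636 CPM in B6J, 4733, 3924 and 4506 CPM in B6J.*Gtpbp1*-/- and 4293, 4518 and 3992 CPM in B6J-*Gtpbp2*-/-, led by *Slc1a3*. No marker was at 0 in all libraries of a genotype, and the part of cell type changes in the results for the autophagy genes was not tested.

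Markers of choroid plexus, bone, muscle and blood were read as well. Summed RNA of 4 choroid plexus markers, almost all of it *Ttr*, was 1746, 1153 and 241 CPM in B6J, 1727, 1277 and 360.2 CPM in B6J.*Gtpbp1*-/- and 54.2, 1067 and 683 CPM in B6J-*Gtpbp2*-/-, and 0 of the 4 genes passed in either mutant (edgeR, 0 at an unadjusted p under 0.05, 0 by DESeq2). Of 5 bone and muscle genes, 0 passed in RNA in either mutant (edgeR, 0 at an unadjusted p under 0.05, 0 by DESeq2). Of 3 blood genes, 1 had higher RNA in B6J.*Gtpbp1*-/- and 0 passed in B6J-*Gtpbp2*-/- (edgeR, 0 at an unadjusted p under 0.05, 0 by DESeq2).

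Levels between genes were compared per length. In transcripts-per-million values (TPM), the B6J means ran from *Gabarapl2* (342), *Gabarapl1* (215), *Sqstm1* (190.3), *Map1lc3b* (157), *Map1lc3a* (141) and *Becn1* (113) to *Atg16l1* (53.4), *Ulk1* (41.2), *Atg12* (36.7) and *Wipi1* (22.8). Ranges of neighbours overlapped for *Gabarapl1* and *Sqstm1*, for *Atg16l1* and *Ulk1*, and for *Ulk1* and *Atg12*. These values sum all transcripts of a gene, coding or not. From protein-coding transcripts alone, *Becn1* had the lowest B6J mean of the 10, at 10.5 TPM. In that sum *Gabarapl2* was at 259.9, *Gabarapl1* at 215, *Sqstm1* at 182.5, *Map1lc3b* at 152.9 and *Map1lc3a* at 39.9 TPM. *Atg12* was at 32.7, *Ulk1* at 31.2, *Atg16l1* at 25.1 and *Wipi1* at 22.8 TPM. In both mutants *Sqstm1* held the highest mean TPM of the 10. It stood at 302, 288 and 315 TPM in B6J.*Gtpbp1*-/-, overlapping *Gabarapl2* at 290.3, 267 and 278, and at 308, 320.5 and 293 TPM in B6J-*Gtpbp2*-/-, above *Gabarapl2* at 259.9, 271 and 287 in every library. Some groups that overlapped in CPM did not in TPM, a value that was not tested. Unlike CPM here, TPM is not scaled by the TMM factors. Those were 0.923 to 0.969 in B6J RNA and 1.01 to 1.04 in the mutants. By itself this sets the mutants higher beside B6J in TPM than in CPM. The share of all genes without overlap in TPM was not counted. *Gabarapl1* was at 222, 231 and 192 TPM in B6J, 284, 275 and 245 TPM in B6J.*Gtpbp1*-/- and 288, 245 and 278 TPM in B6J-*Gtpbp2*-/-, with every mutant library above every B6J library. All B6J-*Gtpbp2*-/- libraries were above all of B6J for *Map1lc3b* (167, 155 and 150.0 TPM in B6J and 189.9, 173 and 173 TPM in B6J-*Gtpbp2*-/-) and *Wipi1* (23.7, 24.4 and 20.2 and 28.3, 26.1 and 26.1 TPM), and B6J.*Gtpbp1*-/- overlapped B6J for both.

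Footprints per coding length, scaled to the same sum over all genes in each library, gave another order. In B6J *Map1lc3a* (776) and *Gabarapl1* (659) overlapped at the top, followed by *Gabarapl2* (457) and *Sqstm1* (358), each apart from its neighbours. *Map1lc3b* (107) and *Atg12* (102) overlapped, and *Becn1* (38.6), *Ulk1* (36.8), *Wipi1* (26.9) and *Atg16l1* (26.8) were lowest. Among these lowest genes *Ulk1* was apart from *Wipi1*, and every other pair overlapped. *Map1lc3a* was thus below 4 other members by mean TPM and had the highest mean by footprints per coding length. The order depends on the coding length used, and with all annotated coding bases of a gene counted *Gabarapl1* (431) came below *Gabarapl2* (489) and *Map1lc3b* (42.8) below *Atg12* (109) in B6J. Values of *Map1lc3b* and *Gabarapl2* here are uncertain, since nearly all of their coding sequence occurs elsewhere in the genome.

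Annotated transcripts of the genes numbered from 3 for *Map1lc3a*, *Gabarapl2* and *Atg12* to 17 for *Becn1*, and levels of single transcripts are estimates of kallisto that were not tested. They are in TPM, without the TMM factors, and the share of all transcripts without overlap between genotypes was not counted. For *Sqstm1*, Sqstm1-202 held 90.2% of B6J TPM, at 166, 175 and 173 TPM in B6J, 255, 252 and 279 TPM in B6J.*Gtpbp1*-/- and 261, 270.4 and 257 TPM in B6J-*Gtpbp2*-/-, without overlap between B6J and either mutant. For *Map1lc3a*, 71.5% of B6J TPM was in Map1lc3a-203, annotated as a processed transcript with no coding sequence. Its protein-coding Map1lc3a-201 had 25.6, 47.2 and 47.0 TPM in B6J, 19.1, 22.6 and 26.7 TPM in B6J.*Gtpbp1*-/- and 31.1, 30.6 and 23.3 TPM in B6J-*Gtpbp2*-/-, and B6J replicate 1 overlapped the mutants. Gabarapl2-201, the protein-coding transcript of *Gabarapl2*, held 76.0% of B6J TPM, at 252, 267 and 261 TPM in B6J, 208, 227 and 210.1 TPM in B6J.*Gtpbp1*-/- and 218, 220.4 and 232 TPM in B6J-*Gtpbp2*-/-, lower in all 6 mutant libraries. *Gabarapl1*, not called at the gene level, had a short protein-coding transcript of 539 bases, Gabarapl1-204, at 20.1, 28.8 and 7.95 TPM in B6J, 60.5, 58.1 and 48.4 TPM in B6J.*Gtpbp1*-/- and 42.7, 35.7 and 61.1 TPM in B6J-*Gtpbp2*-/-. All mutant libraries were above all B6J libraries for that transcript, while Gabarapl1-201 held most of the gene's TPM in every genotype.

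Footprint counts ask whether ribosome occupancy of the same genes differs. No member passed edgeR's test in any footprint comparison. In B6J.*Gtpbp1*-/- 0 of 10 were called, against 0.745% of 13956 genes, with 2 at an unadjusted p under 0.05 (12.6% of all genes) and 0 by DESeq2 (2.91%). In B6J-*Gtpbp2*-/- 0 of 10 were called, against 2.94% of 13797 genes, with 3 at an unadjusted p under 0.05 (17.1%) and 0 by DESeq2 (4.75%). Between the mutants edgeR called 0 of 10 members and 0.00% of 14142 genes, with 2 members at an unadjusted p under 0.05 (10.8%) and 0 by DESeq2 (0.707%). Libraries did not overlap for 2 of 10 genes in each comparison, against 18.0% of all genes in B6J.*Gtpbp1*-/-, 22.5% in B6J-*Gtpbp2*-/- and 16.1% between the mutants. Median log2 fold changes of the 10 were 0.05, 0.05 and 0.04, beside 0.01, 0.01 and 0.00 for all genes tested.

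**Figure D2:**
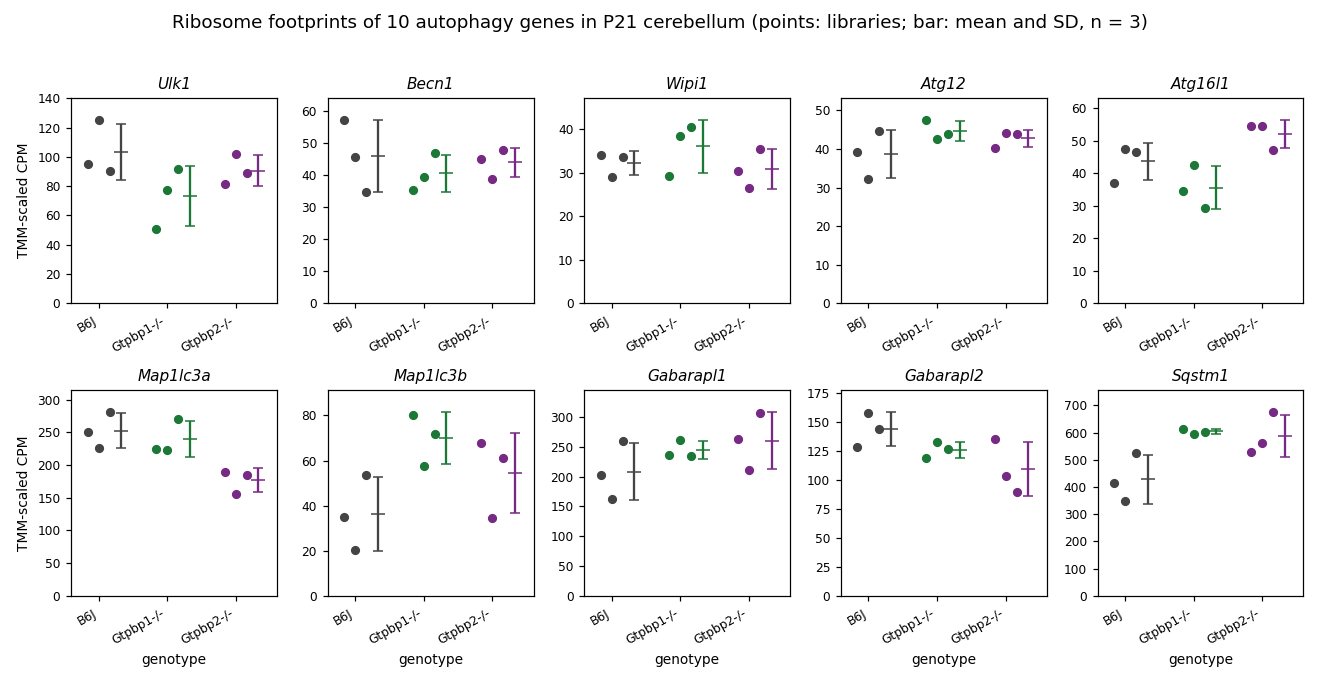
Footprints of the 10 genes in TMM-scaled CPM (vertical axes, from 0) in each library of the 3 genotypes (points), with mean and SD (bars, n = 3). *Sqstm1* lay at 347 to 523 CPM in B6J and at 529 to 674 CPM in the mutants, and none of the 10 genes passed edgeR's test.

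*Sqstm1* footprints were 413, 347 and 523 CPM in B6J, 612, 596 and 603 CPM in B6J.*Gtpbp1*-/- and 529, 561 and 674 CPM in B6J-*Gtpbp2*-/-. Every mutant library was above every B6J library. The log2 fold changes, 0.50 ± 0.19 in B6J.*Gtpbp1*-/- and 0.46 ± 0.17 in B6J-*Gtpbp2*-/-, were close in size to those of its RNA but did not pass (adjusted p = 0.260 and 0.190 from edgeR, unadjusted p = 0.0188 and 0.0185). *Map1lc3a* footprints were 251, 226 and 280.4 CPM in B6J, 225, 223 and 271 CPM in B6J.*Gtpbp1*-/- and 189, 155 and 185 CPM in B6J-*Gtpbp2*-/-. In B6J-*Gtpbp2*-/- they lay below all B6J libraries, with a log2 fold change of −0.52 ± 0.15 (adjusted p = 0.0877 from edgeR and 0.0554 from DESeq2). In B6J.*Gtpbp1*-/- they overlapped B6J (log2 fold change −0.07 ± 0.17, adjusted p = 0.913 from edgeR). The difference between the mutants, 0.43 ± 0.17, had an adjusted p of 0.400 from edgeR, with all B6J.*Gtpbp1*-/- libraries above all B6J-*Gtpbp2*-/- libraries.

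*Map1lc3b* had the largest footprint fold change of the 10 in B6J.*Gtpbp1*-/-. Its footprints were 35.0, 20.4 and 53.4 CPM in B6J, 80.2, 57.7 and 71.9 CPM in B6J.*Gtpbp1*-/- and 67.9, 34.3 and 61.0 CPM in B6J-*Gtpbp2*-/-, and B6J and B6J.*Gtpbp1*-/- did not overlap. The log2 fold change was 0.95 ± 0.29 in B6J.*Gtpbp1*-/- (adjusted p = 0.168 from edgeR, 0.0584 from DESeq2) and 0.59 ± 0.35 in B6J-*Gtpbp2*-/- (adjusted p = 0.447 from edgeR). Without B6J replicate 3 the B6J.*Gtpbp1*-/- value was 1.33 with an adjusted p of 0.0480 from edgeR, and over all alternatives the adjusted p ran from 0.0480 to 0.462. The B6J-*Gtpbp2*-/- value ran from 0.31 to 0.99 when a library was left out. *Gabarapl2* footprints were 129, 158 and 144 CPM in B6J, 119, 133 and 126 CPM in B6J.*Gtpbp1*-/- and 135, 103 and 89.4 CPM in B6J-*Gtpbp2*-/-, with overlap and log2 fold changes of −0.18 ± 0.17 and −0.39 ± 0.18 (adjusted p = 0.726 and 0.271 from edgeR). *Gabarapl1* footprints, 203, 163 and 259 CPM in B6J, 237, 262 and 234 CPM in B6J.*Gtpbp1*-/- and 264, 211 and 306 CPM in B6J-*Gtpbp2*-/-, overlapped too (adjusted p = 0.677 and 0.402 from edgeR). Footprint values of *Map1lc3b* and *Gabarapl2* are uncertain because of the copies of their coding sequence described below.

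Of the genes for initiation, nucleation and conjugation, none had footprints that differed from B6J by edgeR's test. *Ulk1* footprints were 95.0, 125 and 90.1 CPM in B6J, 51.0, 77.1 and 91.6 CPM in B6J.*Gtpbp1*-/- and 81.2, 102 and 89.1 CPM in B6J-*Gtpbp2*-/- (log2 fold change −0.50 ± 0.23 and −0.19 ± 0.17, adjusted p = 0.401 and 0.635 from edgeR). *Becn1* footprints were 57.3, 45.9 and 34.8 CPM in B6J, 35.5, 39.4 and 47.0 CPM in B6J.*Gtpbp1*-/- and 45.3, 39.0 and 47.9 CPM in B6J-*Gtpbp2*-/-. *Wipi1* footprints were 34.1, 29.0 and 33.5 CPM in B6J, 29.2, 38.4 and 40.5 CPM in B6J.*Gtpbp1*-/- and 30.4, 26.4 and 35.5 CPM in B6J-*Gtpbp2*-/-. All of these overlapped between groups. *Atg12* footprints were 39.1, 32.3 and 44.6 CPM in B6J, 47.5, 42.5 and 43.8 CPM in B6J.*Gtpbp1*-/- and 40.3, 44.1 and 43.8 CPM in B6J-*Gtpbp2*-/-. For *Atg16l1* they were 37.1, 47.4 and 46.7 CPM in B6J, 34.6, 42.6 and 29.5 CPM in B6J.*Gtpbp1*-/- and 54.5, 54.8 and 47.2 CPM in B6J-*Gtpbp2*-/-. *Atg16l1* was lower in every B6J.*Gtpbp1*-/- library than in every B6J-*Gtpbp2*-/- library, with a log2 fold change of −0.55 ± 0.20 (adjusted p = 0.373 from edgeR).

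**Figure D3:**
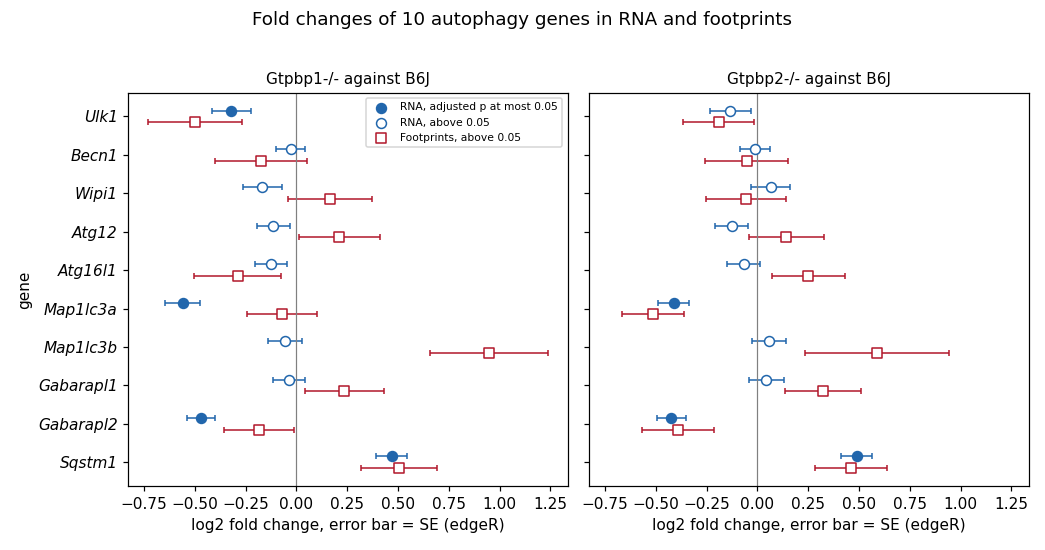
Log2 fold changes against B6J (horizontal axes) of the 10 genes (vertical axis) in B6J.*Gtpbp1*-/- (left) and B6J-*Gtpbp2*-/- (right) for RNA (circles) and footprints (squares), with the SE from edgeR as error bars and filled symbols where the adjusted p was at most 0.05. *Sqstm1* was at 0.47 and 0.49 in RNA and at 0.50 and 0.46 in footprints, and no footprint symbol is filled.

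Markers of cell types and other tissues differed in footprints too. Summed footprints of the 6 granule neuron markers, led by *Gabra6*, were 2205, 3811 and 2882 CPM in B6J, 2212, 1497 and 2185 CPM in B6J.*Gtpbp1*-/- and 1421, 1127 and 1257 CPM in B6J-*Gtpbp2*-/-. Lower footprints by edgeR's test were found for 4 of the 6 in B6J-*Gtpbp2*-/- (median log2 fold change −1.22), and for B6J.*Gtpbp1*-/- edgeR called 0 (median −0.58, 3 at an unadjusted p under 0.05, 0 by DESeq2). Of the microglial markers, *C1qa* was higher in both mutants, at 29.2, 23.5 and 23.9 CPM in B6J, 95.6, 40.6 and 80.6 CPM in B6J.*Gtpbp1*-/- and 53.1, 47.1 and 87.5 CPM in B6J-*Gtpbp2*-/-. *Cx3cr1*, *Csf1r*, *P2ry12* and *Tmem119* did not pass edgeR's test in either, with log2 fold changes of 0.94, 1.01, 0.79 and 1.25 in B6J.*Gtpbp1*-/- and 0.55, 0.37, 0.23 and 0.52 in B6J-*Gtpbp2*-/- (adjusted p of 0.0995 to 0.174 and 0.203 to 0.727 from edgeR). These 4 all had an unadjusted p under 0.05 and libraries above all of B6J in B6J.*Gtpbp1*-/-, where DESeq2 called *Cx3cr1* and *Csf1r* (adjusted p = 0.0489 and 0.0128). Only *Cx3cr1* did so in B6J-*Gtpbp2*-/-, where DESeq2 called none of the 4. Endothelial markers were higher for 1 of 4 genes in B6J.*Gtpbp1*-/- and 2 of 4 in B6J-*Gtpbp2*-/-, with sums (led by *Slco1c1* in B6J and B6J.*Gtpbp1*-/- and by *Cldn5* in B6J-*Gtpbp2*-/-) of 336, 232 and 356 CPM in B6J, 813, 537 and 442 CPM in B6J.*Gtpbp1*-/- and 595, 526 and 556 CPM in B6J-*Gtpbp2*-/-. For the 6 Purkinje cell markers edgeR called 0 in either mutant (1 and 2 at an unadjusted p under 0.05, 0 and 1 by DESeq2). Their median log2 fold changes were 0.11 in B6J.*Gtpbp1*-/- and 0.41 in B6J-*Gtpbp2*-/-, positive where RNA calls were lower, and their sums, led by *Itpr1*, were 9830, 6509 and 13390 CPM in B6J, 12450, 13270 and 7307 CPM in B6J.*Gtpbp1*-/- and 14930, 14960 and 12280 CPM in B6J-*Gtpbp2*-/-. For the 6 astrocyte and Bergmann glia markers it called 0 in either (2 and 2 at an unadjusted p under 0.05, 1 and 1 by DESeq2), with sums led by *Aldoc* of 7026, 5728 and 9276 CPM in B6J, 7651, 9037 and 8191 CPM in B6J.*Gtpbp1*-/- and 9369, 8806 and 9781 CPM in B6J-*Gtpbp2*-/-. Of the oligodendrocyte markers, *Mbp*, *Mog*, *Mag*, *Cldn11* and *Mobp* did not pass in either (adjusted p of 0.449 to 0.980 in B6J.*Gtpbp1*-/- and 0.385 to 0.942 in B6J-*Gtpbp2*-/-, from edgeR, with none at an unadjusted p under 0.05 or called by DESeq2), and *Mbp* was at 1251, 1140 and 1250 CPM in B6J, 1603, 1284 and 1780 CPM in B6J.*Gtpbp1*-/- and 1693, 1543 and 1240 CPM in B6J-*Gtpbp2*-/-.

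Footprints of choroid plexus markers, led by *Ttr*, varied widely between libraries of a genotype, with sums of 5638, 3779 and 54.0 CPM in B6J, 13630, 188 and 12270 CPM in B6J.*Gtpbp1*-/- and 476, 9444 and 9593 CPM in B6J-*Gtpbp2*-/-, and 0 of the 4 genes passed in either mutant (edgeR, 0 at an unadjusted p under 0.05, 0 by DESeq2). The 5 bone and muscle genes, led by *Col1a1*, summed to 118, 363 and 555 CPM in B6J, 982, 858 and 1741 CPM in B6J.*Gtpbp1*-/- and 319.8, 544 and 209.8 CPM in B6J-*Gtpbp2*-/-. In B6J.*Gtpbp1*-/- edgeR called 0 of them (4 at an unadjusted p under 0.05, 1 by DESeq2), and in B6J-*Gtpbp2*-/- it called 0 of the 3 tested (1 and 1). The 3 blood genes, led by *Hbb-bs*, summed to 516, 351 and 771 CPM in B6J, 1747, 615 and 1058 CPM in B6J.*Gtpbp1*-/- and 727, 2512 and 612 CPM in B6J-*Gtpbp2*-/-, and edgeR called 0 in either mutant (1 and 0 at an unadjusted p under 0.05, 1 and 0 by DESeq2). No marker's footprints were at 0 in all libraries of a genotype. The part of these cell types and tissues in the footprint results of the autophagy genes was not tested.

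Translational efficiency (TE), the level of footprints relative to RNA, was tested as the interaction of assay and genotype over 12 libraries. All RNA libraries are labelled as batch 1 and all footprint libraries as batch 2, so a level of TE carries the batch, and the labels do not say whether libraries of the 2 assays came from the same mice. EdgeR called 0 of 10 members in B6J.*Gtpbp1*-/- (0.00% of 13086 genes), 0 in B6J-*Gtpbp2*-/- (0.00773% of 12931) and 0 between the mutants (0.00% of 13292). An unadjusted p under 0.05 was reached by 2, 0 and 2 members, beside 1170, 1554 and 1483 of all genes, and DESeq2 called 0 members in each, beside 0.443%, 1.24% and 1.17% of all genes. Median log2 changes of the 10 were 0.28, 0.01 and 0.05, where all genes tested had 0.03, 0.03 and 0.01. Median TE changes of markers in B6J.*Gtpbp1*-/- were 0.49 for oligodendrocytes (edgeR called 0, DESeq2 1) and 0.08 for granule neurons (0 by both). In B6J-*Gtpbp2*-/- they were 0.73 for Purkinje cells, −0.43 for granule neurons and 0.14 for oligodendrocytes (0 by both for each). There 4 Purkinje cell markers, 2 granule neuron markers and 0 oligodendrocyte markers had an unadjusted p under 0.05 (edgeR). Between the mutants they were 0.67 for granule neurons (edgeR 0, DESeq2 1) and −0.37 for Purkinje cells (0 by both). The part of cell types in TE of the autophagy genes was not tested. For *Sqstm1* the log2 change in TE came to 0.04 ± 0.19 in B6J.*Gtpbp1*-/- and −0.02 ± 0.19 in B6J-*Gtpbp2*-/- (adjusted p = 0.973 and 0.976 from edgeR). *Map1lc3b* had 1.00 ± 0.33 in B6J.*Gtpbp1*-/- (unadjusted p = 0.00815, adjusted p = 0.477 from edgeR), and *Map1lc3a* had 0.49 ± 0.18 (unadjusted p = 0.0152, adjusted p = 0.490, edgeR). Between the mutants *Map1lc3a* had 0.58 ± 0.17 (unadjusted p = 0.00460, adjusted p = 0.284, edgeR) and *Atg16l1* −0.49 ± 0.19 (unadjusted p = 0.0233, adjusted p = 0.376, edgeR).

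A wider list of 64 autophagy genes, which includes the 10, shows the rest of the pathway. In RNA, 12 of 64 passed edgeR's test in B6J.*Gtpbp1*-/- (18.8%, 1 higher and 11 lower), where 13.8% of all genes did (5.90% higher and 7.93% lower), and 6 of 64 in B6J-*Gtpbp2*-/- (9.38%, 2 higher and 4 lower), where 8.63% did (3.61% and 5.02%), so the share in B6J-*Gtpbp2*-/- was near that of all genes. The median log2 fold change of the 64 came to −0.08 in B6J.*Gtpbp1*-/- and −0.07 in B6J-*Gtpbp2*-/-, where all genes had 0.03 in each. Over the alternatives, the count in B6J.*Gtpbp1*-/- ran from 6 to 17 and that in B6J-*Gtpbp2*-/- from 3 to 9. By role, edgeR's calls in B6J.*Gtpbp1*-/- and B6J-*Gtpbp2*-/- were 2 and 0 of 5 initiation genes, 0 and 0 of 8 nucleation genes (1 and 0 at an unadjusted p under 0.05, 0 by DESeq2 in both), and 2 and 1 of 9 phagophore genes. They were 1 and 1 of 11 conjugation genes, 3 and 1 of 12 receptor genes, 1 and 1 of 8 fusion genes, and 1 and 0 of 6 transcription regulators. Of these regulators, 2 and 3 had an unadjusted p under 0.05 (edgeR), and DESeq2 called 2 and 2. Between the mutants edgeR called 0 of 64 in RNA, with 3 at an unadjusted p under 0.05 (3.57% of all genes) and 0 by DESeq2 (0.183%). In footprints edgeR called 0 of 64 in B6J.*Gtpbp1*-/-, in B6J-*Gtpbp2*-/- and between them, with 7, 9 and 7 of the 64 at an unadjusted p under 0.05 (12.6%, 17.1% and 10.8% of all genes) and 1, 1 and 1 by DESeq2 (2.91%, 4.75% and 0.707%). Over the alternatives these footprint counts ran from 0 to 1, from 0 to 2 and from 0 to 1. In TE edgeR called 0 in each, with 5, 8 and 5 of the 64 at an unadjusted p under 0.05 (beside 1170 of 13086, 1554 of 12931 and 1483 of 13292 genes overall) and 0, 0 and 1 by DESeq2 (0.443%, 1.24% and 1.17%). The TE count between the mutants ran from 0 to 1 over the alternatives.

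Beside the 10 members, the genes of that list with the smallest p in B6J.*Gtpbp1*-/- RNA began with *Tecpr1*, which encodes a tether between autophagosome and lysosome. *Tecpr1* RNA was 213, 206 and 200.1 CPM in B6J, 123, 121 and 114 CPM in B6J.*Gtpbp1*-/- and 146, 120.4 and 129 CPM in B6J-*Gtpbp2*-/-. It fell in both mutants (log2 fold change −0.80 ± 0.07, adjusted p = 1e-05, and −0.65 ± 0.09, adjusted p = 0.000927, from edgeR). *Atg4d*, an autophagy protease, was at 51.5, 53.3 and 52.2 CPM in B6J, 36.4, 37.7 and 39.8 CPM in B6J.*Gtpbp1*-/- and 38.2, 40.3 and 40.9 CPM in B6J-*Gtpbp2*-/-. Its log2 fold changes were −0.47 ± 0.08 and −0.40 ± 0.08 (adjusted p = 0.00169 and 0.00996 from edgeR). *Atg9a* (−0.40, adjusted p = 0.00306 from edgeR), *Atg2a* (−0.43, 0.00497) and *Tfeb* (−0.49, 0.0263) were lower in B6J.*Gtpbp1*-/-. In B6J-*Gtpbp2*-/- they were at −0.23, −0.29 and −0.42 and did not pass (adjusted p = 0.140, 0.0926 and 0.161 from edgeR), and none of the 3 differed between the mutants (adjusted p = 1.00 for each, edgeR). *Atg9b* was higher in B6J-*Gtpbp2*-/- at a very low level, 0.297, 0.388 and 0.872 CPM in B6J and 2.16, 1.34 and 3.04 CPM in B6J-*Gtpbp2*-/- (adjusted p = 0.0189 from edgeR), and was at 1.62, 2.19 and 0.808 CPM in B6J.*Gtpbp1*-/-.

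Genes of the integrated stress response, whose transcription factor ATF4 is known to act on autophagy genes in other settings, are set beside the 10. Of the 8 genes on that list (*Atf4*, *Ddit3*, *Trib3*, *Chac1*, *Sesn2*, *Ddit4*, *Asns* and *Atf5*), 7 had higher RNA by edgeR's test in B6J.*Gtpbp1*-/- and 7 in B6J-*Gtpbp2*-/-, with median log2 fold changes of 2.00 and 1.94. *Ddit4* did not pass (adjusted p = 0.0572 and 0.0851 from edgeR). *Atf4* RNA was 147, 181 and 189 CPM in B6J, 309, 314 and 345 CPM in B6J.*Gtpbp1*-/- and 278, 336 and 313 CPM in B6J-*Gtpbp2*-/-. In footprints 6 of the 8 were higher in B6J.*Gtpbp1*-/- and 7 in B6J-*Gtpbp2*-/-, with medians of 1.98 and 1.97. When a library was left out, these counts ran from 4 to 6 in B6J.*Gtpbp1*-/- and from 4 to 7 in B6J-*Gtpbp2*-/-. For TE edgeR called 0 in either (4 and 5 at an unadjusted p under 0.05, 2 and 0 by DESeq2). RNA log2 fold changes in B6J.*Gtpbp1*-/- and B6J-*Gtpbp2*-/- were 5.20 and 4.96 for *Trib3*, 2.99 and 2.93 for *Chac1*, 2.98 and 2.83 for *Sesn2*, 2.14 and 1.97 for *Asns*, 1.85 and 1.91 for *Atf5*, 1.29 and 1.18 for *Ddit3* and 0.90 and 0.83 for *Atf4*. Those of *Sqstm1*, 0.47 and 0.49, were smaller than those of every gene on the list but *Ddit4* (0.34 and 0.41). Whether the stress response has a part in the values of the autophagy genes was not tested.

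Over the 9 RNA libraries of 3 genotypes, the genes whose log2 CPM ran most alike to that of *Sqstm1*, among 16280 genes with a mean of at least 1 CPM, were *Slc16a14* (Pearson r = 0.996), *Atf5* (0.995), *Aebp2* (0.991), *C1galt1* (0.991) and *Trim66* (0.991). These values describe the split between B6J and the mutants and say nothing of shared function. *Slc16a14* was at 7.28, 7.36 and 8.18 CPM in B6J, 26.4, 22.1 and 30.2 CPM in B6J.*Gtpbp1*-/- and 25.7, 28.9 and 28.5 CPM in B6J-*Gtpbp2*-/-. Among the other members, r with *Sqstm1* was −0.977 for *Gabarapl2*, −0.908 for *Map1lc3a*, −0.628 for *Atg16l1*, −0.578 for *Ulk1* and 0.023 for *Map1lc3b*.

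All groups carry the n-Tr20 mutation, and AGA codons in the genes' principal coding sequences were counted as a description. *Ulk1* and *Atg16l1* had 6 each, in 1051 and 607 codons, *Becn1* had 4 in 448 and *Map1lc3b* had 3 in 125 (2.40%). *Gabarapl2* had 2 in 117 codons (1.71%), *Gabarapl1*, *Sqstm1* and *Wipi1* had 1 each, and *Map1lc3a* and *Atg12* had 0. The median over 21918 genes was 4 AGA codons, or 1.11% of codons. *Sqstm1*, with 1 in 442 codons (0.226%), was below that median.

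Footprints are short, so windows of 30 bases of each coding sequence were looked up in the genome (GRCm38.p6, RefSeq). For 8 of the 10 genes no window was found outside the gene. All 346 windows of *Map1lc3b* and 319 of 322 windows of *Gabarapl2* (99.1%) also occurred elsewhere, each gene having 7 copies that cover at least 90% of its coding sequence. For *Map1lc3b* 5 annotated processed pseudogenes are among these copies, the closest being *Gm6055* at chr14:48079378-48079752 with 99.7% identity over 375 bases. For *Gabarapl2* 6 pseudogenes are among them, the closest being *Gm3724* at chr5:24118316-24118666 with 99.4% identity over 351 bases. These pseudogenes are not in the footprint table, and their highest RNA count in a library was 10, where *Gabarapl2* had at least 6055 and *Map1lc3b* at least 6781. Footprints from either gene thus seldom have a unique place in the genome, and how the deposited counts treated them was not analysed here. The differing bases of the closest copy of *Gabarapl2* are G159T and T300G, counted from 1 at the first base of the coding sequence, with the gene's base first. *Map1lc3b* and its closest copy differ by G206A, counted the same way. The windows around the differences of *Gabarapl2* are printed to show the bases that set the gene apart from this copy, and since all but 3 of its 322 windows of 30 bases occur elsewhere, reads there may still match other copies. They are given with the differing base in capitals, from the plus strand of chr8:111942555-111942585 and chr8:111952336-111952366 for the gene and the minus strand of chr5:24118493-24118523 and chr5:24118352-24118382 for the copy.
Gabarapl2 around G159T: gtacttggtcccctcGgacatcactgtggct
Gm3724 copy around G159T: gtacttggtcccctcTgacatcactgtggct
Gabarapl2 around T300G: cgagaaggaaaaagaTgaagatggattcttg
Gm3724 copy around T300G: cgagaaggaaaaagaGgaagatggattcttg

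Promoters were read from RefSeq windows of 250 bases before to 50 after each gene's RefSeq start (GRCm38.p6), which held 6 of the 10 members: *Sqstm1*, *Map1lc3b*, *Gabarapl1*, *Gabarapl2*, *Ulk1* and *Wipi1*. RefSeq starts can differ from the Gencode positions given above. Both strands were searched. The core of the element bound by ATF4 and its partners, TGATGNAA, was in 0 of 6 windows and in 3.97% of all 32851 promoters, and among the stress response genes it was in *Trib3*, *Chac1* and *Asns*. The E-box CACGTG, at the centre of the element bound by TFEB, was in 0 of 6 and in 7.15% of all promoters. A pair of motifs was added after seeing the data. The antioxidant response element core TGACNNNGC (12.4% of promoters) was in *Map1lc3b*, from base 5 after the RefSeq start (window chr8:121590188-121590487), and that start lies inside the gene as Gencode annotates it. The cAMP response element core TGACG (20.8% of promoters), whose first 4 letters are also those of the previous motif, was in *Map1lc3b*, starting 15 bases before that RefSeq start, and on the minus strand in *Gabarapl2*, where its complement CGTCA starts 130 bases before the RefSeq start. A match is a description of letters and no match says only that these letters are not in the window. The 250 bases before the RefSeq start are shown for the members with RNA calls that the table holds, 5′ to 3′ on each gene's strand, with motif matches in capitals (chr11:50210771-50211070, minus, chr8:111940453-111940752, plus, and chr5:110810032-110810331, minus, are the whole windows).
Sqstm1 promoter: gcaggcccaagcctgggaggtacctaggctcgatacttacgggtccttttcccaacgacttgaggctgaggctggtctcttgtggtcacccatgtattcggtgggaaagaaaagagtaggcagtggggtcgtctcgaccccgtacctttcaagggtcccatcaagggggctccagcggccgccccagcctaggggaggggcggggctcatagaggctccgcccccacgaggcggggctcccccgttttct
Gabarapl2 promoter: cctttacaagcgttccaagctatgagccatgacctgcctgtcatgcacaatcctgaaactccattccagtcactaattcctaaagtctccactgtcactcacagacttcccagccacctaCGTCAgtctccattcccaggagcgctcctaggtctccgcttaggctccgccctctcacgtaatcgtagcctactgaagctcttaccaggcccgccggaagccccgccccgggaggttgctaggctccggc
Ulk1 promoter: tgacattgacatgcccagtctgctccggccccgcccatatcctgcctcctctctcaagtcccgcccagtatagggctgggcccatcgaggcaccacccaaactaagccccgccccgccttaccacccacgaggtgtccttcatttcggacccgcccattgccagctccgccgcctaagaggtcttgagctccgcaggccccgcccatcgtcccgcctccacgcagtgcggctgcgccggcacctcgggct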

How the data were processed

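For RNA, the authors quantified reads with kallisto 0.42.4 against Gencode transcripts, and the deposited tables give an estimated count and TPM per transcript, which were summed per gene, counts being rounded. For footprints, the authors removed ribosomal RNA reads with Bowtie2 2.2.3, aligned with HISAT2 2.1.0 and counted coding sequence with featureCounts, and the deposited table gives a count per gene.

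Each pair of genotypes was tested over its 6 libraries of an assay in edgeR 4.0.16 (R 4.3.3, quasi-likelihood test, TMM, robust fit, Benjamini-Hochberg adjustment over all genes tested, adjusted p at most 0.05) with a filter of 5 or more counts in 3 or more libraries. TE was the interaction of assay and genotype over 12 libraries, with a filter of 10 or more counts in 3 or more libraries of each assay and without genes prefixed Hist. The tools of the study, sleuth and riborex, were not used here. The procedure was also run on simulated counts with known fold changes. How many of those it recovered is not reported here, so that run does not measure the power of the tests above. The SE was taken from the fold change and its F statistic. Alternatives were DESeq2 1.42.0, upper quartile normalization, no filter on low counts, all 9 libraries in 1 model, an offset for transcript length, protein-coding transcripts alone, sex as a term, the replicate number as a block and leaving out each library.

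Coding lengths and AGA codons came from the APPRIS principal transcript of each gene, a choice that replaced the union of annotated coding bases after the data were seen, and copies were found with blastn 2.17.0. Named genes are the 10 members, the stress response list, at most 8 genes per direction and mutant of the wider autophagy list past the threshold in RNA, and the 5 genes most alike to *Sqstm1*. Named beside these are the mutated genes, *Ddx3y* for sex, the closest pseudogene copies, the most abundant gene of a marker list and, where no sum is given, single markers from it. The pseudogenes and the markers given singly were chosen after their values were seen. *Ddit3* has 2 gene IDs, of which the more abundant was used. The members and lists were chosen with earlier results of these data known. Some results on single genes and groups of genes planned at the start are not reported here.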

Additional observations from a re-analysis of the deposited data

How the results depend on the processing

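Of 1080 values of the 10 members under alternatives (fold changes in 9 comparisons), 1069 kept their side of the threshold and, where called, their direction, 10 were no longer called, 1 became called and 0 reversed. Among values called in neither fit, 51 differed in sign. The 10 losses were *Ulk1* RNA in B6J.*Gtpbp1*-/- under 9 alternatives and *Map1lc3a* RNA in B6J-*Gtpbp2*-/- with protein-coding transcripts alone. *Ulk1* gave −0.22 with the length offset (adjusted p = 0.371 from edgeR), −0.35 with sex as a term (0.0645) and −0.27 with upper quartile normalization (0.0807). Without B6J replicate 1 or 2, or without B6J.*Gtpbp1*-/- replicate 1, 2 or 3, the adjusted p was 0.164, 0.165, 0.0548, 0.182 and 0.103 (edgeR). In the same order, the log2 fold changes were −0.275, −0.258, −0.371, −0.275 and −0.316, beside −0.32 with all libraries. The gain was *Map1lc3b* footprints in B6J.*Gtpbp1*-/- without B6J replicate 3. The count of members called went from 3 to 4 in B6J.*Gtpbp1*-/- RNA, from 2 to 3 in B6J-*Gtpbp2*-/- RNA and from 0 to 1 in B6J.*Gtpbp1*-/- footprints, and stayed 0 in the other comparisons. The cause of these changes was not tested.

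Counts over all genes moved more. In RNA, the count in B6J.*Gtpbp1*-/- (3398) was 2231 with the length offset and 1890 to 3798 when a library was left out. In B6J-*Gtpbp2*-/- (2146) it was 3409 with DESeq2, 1360 with the offset, 1071 with sex as a term and 953 to 2357 with a library left out. Between the mutants (15) it was 46 with DESeq2, 36 without a filter, 5 with protein-coding transcripts, 9 with sex as a term and 9 to 17 with a library left out. In footprints, the count in B6J.*Gtpbp1*-/- (104) was 406 with DESeq2, 213 with all 9 libraries, 213 without a filter and 22 to 186 with a library left out. In B6J-*Gtpbp2*-/- (406) it was 655 with DESeq2, 261 with all 9 libraries and 106 to 619 with a library left out. Between the mutants (0) it was 100 with DESeq2, 1 with all 9 libraries, 15 without a filter, 3 with upper quartile normalization and 0 to 33 with a library left out. In TE, counts in B6J.*Gtpbp1*-/-, in B6J-*Gtpbp2*-/- and between them (0, 1 and 0) were 58, 160 and 155 with DESeq2, 11 in B6J-*Gtpbp2*-/- with all 18 libraries, and 0 to 18, 0 to 42 and 0 to 32 with a library left out.

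With the replicate number as a block, counts were 2237 in B6J.*Gtpbp1*-/- RNA, 44 in B6J.*Gtpbp1*-/- footprints, 1 between the mutants in footprints and 0 in B6J-*Gtpbp2*-/- TE, and *Ulk1* RNA in B6J.*Gtpbp1*-/- had −0.31 (adjusted p = 0.0822 from edgeR). The libraries do not show whether the numbers pair the samples. Deviations from the genotype mean of libraries with the same number correlated at −0.05 to 0.09 in RNA and −0.26 to 0.10 in footprints.

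With the union of annotated coding bases as the coding length, the first setting used and replaced after the values were seen, 9 of 30 means per coding length (10 members in 3 genotypes) moved by at least 1 SD and 17 took another place in the order. *Map1lc3a* was highest in all 3 genotypes with the union, whereas *Gabarapl1* was highest in both mutants with the principal transcript.

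Footprint libraries hold fewer counts, and 0 calls among members there do not show that their footprints were equal. Libraries of a genotype correlated at 0.955 to 0.986 in RNA and 0.948 to 0.970 in footprints (log2 CPM), with a spread above counting error (chi-square per gene of 16.0 to 43.1 and 10.6 to 36.1). With 3 libraries per genotype, bulk tissue at a single age and assay tied to batch, neither protein levels nor autophagic flow was measured.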
